A study of Mus musculus with 6 samples.

Results

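The 630 peaks described here are regions of the mouse genome enriched by an antibody against ZBTB43 in chromatin from 100K prospermatogonia, where K stands for 1000 cells, relative to input chromatin of the same cell number. Members were all rows of the peak list for that comparison, of 3588 rows in the 4 peak lists of the series. The list includes 18 peaks with no overlapping peak in the list made with 491K cells against input. Cells came from wild-type male fetuses at 15.5 dpc, sired by males carrying the Oct4-EGFP transgene (strain label B6;CBA-Tg(Pou5f1-EGFP)2Mnn/J), and were purified as EGFP-positive cells after pooling of testes. The dams were C57Bl/6J or, by 1 passage of the methods, also carriers of the transgene. The transgene was therefore carried by the cells of every library, and the sort on its fluorescence defined them as germ cells. The other lists came from 491K cells against input, 491K cells against IgG of 415K cells, and 100K cells against IgG of 100K cells, all at the same age and genotype. By the methods, cells of the larger experiment were fixed as combined frozen batches and sheared in several tubes. The 100K samples were fixed as sorted cells and frozen afterwards. Cell number can therefore not be told apart from this handling. Each group held 1 library, so no value below has replicate error. Both lists of a cell number were called on the same ZBTB43 library and differ only in the control, so overlap with both is not separate support. The methods state a common minimum depth of sequencing, but how many reads entered each peak call is not in the lists. The labelled cell type could not be checked against marker genes, because peak lists hold no expression values.

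ZBTB43 belongs to the BTB zinc finger family, whose members pair a protein-interaction domain with DNA-binding zinc fingers and mostly act as transcriptional regulators. DNA in which purines and pyrimidines alternate, termed a purine–pyrimidine repeat (PPR), can turn from the right-handed B form into the left-handed Z form under negative supercoiling. Runs of the dinucleotides CG and CA take up the Z form most readily among alternating sequences, and TA runs do so poorly. Prospermatogonia are the fetal male germ cells that stop dividing and rebuild DNA methylation before birth. The comparison asks where on chromatin ZBTB43 was enriched in these cells, with an amount of material smaller than that of the main experiment.

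Most of the 630 peaks lay on repeats of CA. An alternating tract, meaning 20 bp or more with purine and pyrimidine taking turns at each base, was present in 515 peaks (81.7%, 95% Wilson interval 78.5 to 84.6%, which covers counting error only). Of all 17303585 windows of 153 bp into which the genome was cut, the median peak width, 2.94% held such a tract. A run of at least 10 CA or TG dinucleotides was present in 500 peaks (79.4%, interval 76.0 to 82.3%) and in 1.49% of windows. At least 2 tandem units of CACG, in any phase and on either strand, were present in 68 peaks (10.8%, interval 8.60 to 13.5%) and in 0.260% of windows. The sequences below show the range of these tracts, read from the GRCm38.p6 assembly on the plus strand, with the longest alternating tract of each printed stretch in capitals. The first is the highest-scoring peak of at most 300 bp whose longest tract, as cut by the peak edges, holds only CA. The next ones are the peaks with the most CACG units inside them. The last ones are loci that the study names for ZBTB43 binding.
intergenic, chr17:49941282-49941476: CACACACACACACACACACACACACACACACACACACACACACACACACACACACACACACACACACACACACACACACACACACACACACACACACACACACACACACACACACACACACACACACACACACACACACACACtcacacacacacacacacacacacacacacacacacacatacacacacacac
Gm36235, chr12:16015483-16015628: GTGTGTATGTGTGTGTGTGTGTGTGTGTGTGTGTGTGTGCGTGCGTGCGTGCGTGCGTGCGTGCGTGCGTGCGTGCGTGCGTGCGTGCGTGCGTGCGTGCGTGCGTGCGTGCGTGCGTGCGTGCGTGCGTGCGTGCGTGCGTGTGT
Apbb2, chr5:66466339-66466461: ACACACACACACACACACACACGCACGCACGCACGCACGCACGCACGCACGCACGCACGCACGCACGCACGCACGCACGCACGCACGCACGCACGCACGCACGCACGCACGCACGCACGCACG
Cngb3, chr4:19490216-19490461: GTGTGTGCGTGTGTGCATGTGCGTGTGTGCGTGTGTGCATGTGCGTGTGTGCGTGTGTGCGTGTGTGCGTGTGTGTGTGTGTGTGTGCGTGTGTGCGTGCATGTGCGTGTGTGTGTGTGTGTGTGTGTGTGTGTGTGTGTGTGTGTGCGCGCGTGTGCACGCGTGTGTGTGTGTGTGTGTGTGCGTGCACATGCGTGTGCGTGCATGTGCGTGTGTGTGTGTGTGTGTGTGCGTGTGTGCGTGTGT
Src, chr2:157445191-157445310: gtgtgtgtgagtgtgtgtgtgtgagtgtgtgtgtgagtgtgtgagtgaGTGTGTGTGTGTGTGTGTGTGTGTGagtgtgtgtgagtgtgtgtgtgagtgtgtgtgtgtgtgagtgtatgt

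The peak on chromosome 17, more than 10 kb from any annotated gene, had a score of 4672 and ranked 5 of 630. The score, taken as a measure of strength, stands for the −log10 q-value of the peak caller times 10. Within the chromosome 17 peak, the longest tract ran for 143 bp of CA from 1 edge. It ended at a single base out of phase, after which CA repeats went on to the other edge of the peak. Counted past the peak edge, the tract was 500 bp long and also held other alternating steps without CG. The peak at the start of the long non-coding RNA gene Gm36235 had a score of 2035, and its whole length of 146 bp was 1 tract with 26 CACG units. The intronic peak of Apbb2, which encodes a cytoplasmic adaptor protein, also held 26 CACG units but had a score of 198. Units were counted inside the peaks only, so the equal numbers at ranks 13 and 243 do not stand for equal tracts. The whole tract was 156 bp long at Gm36235 and 243 bp at Apbb2, where it ran on past the edge of the peak. At Cngb3, a subunit of the cone photoreceptor channel, 246 bp alternated without a break and held 21 CpG. At Src, which encodes a tyrosine kinase, the longest unbroken tract within the peak of 377 bp was 25 bp, in a stretch of TG runs set apart by single bases.

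The longest tract within the peak fell into 3 classes by its letters. In 242 peaks (38.4%) it consisted of CA or TG only, in 135 peaks (21.4%) it held CG, and in 138 peaks (21.9%) it held other alternating steps without CG. The tracts that held CG were the longest of the 3 classes, with a median of 128 bp within the peak, against 39.5 bp for CA or TG only and 66.5 bp for the others. Their peaks were also wider, with a median of 210 bp against 150.5 bp and 156 bp. The medians of the scores lay closer together, at 140, 178 and 139.5 for tracts with CG, with CA or TG only and of the other kind. The widest peaks included an intergenic region of 1163 bp on chromosome 12 with a score of 712 and a region of 1032 bp 9718 bp from Fam135b with a score of 3024. The longest tract inside a peak was 692 bp, which made up the whole of an intronic peak of Arid5b, a DNA-binding chromatin regulator. It was followed by tracts of 573 bp near Zdhhc2, which encodes a palmitoyltransferase, and of 563 bp at Fam71e2.

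Peak edges lay inside these tracts more often than outside them. Of the 515 peaks with a tract, 443 (86.0%) had a tract that crossed an edge of the peak, 195 at 1 edge and 248 at both, and 74 peaks lay wholly inside 1 tract. Counted at their whole length in the genome, the tracts touched by the peaks had a median of 57.0 bp with quartiles of 41.0 and 140 bp, over 520 peaks. Of these longest tracts, 167 (32.1%) were at least 100 bp long. Taking the longest tract of each peak raises this share, so it has no like value among single tracts of the genome. Counted tract by tract, 195 of the 1669 tracts that overlapped a peak reached 100 bp, against 8490 (1.45%) of the 586442 tracts of the genome. The median length was 33.0 bp for the overlapping tracts and 34.0 bp for all tracts. The peaks at Fam71e2 and Arid5b lay on whole tracts of 869 bp and 735 bp. The share of peaks with a tract at a given base was 55.9% at the peak centre, reached 63.5% at 60 bp from the centre, and was 37.5% at 100 bp and 2.54% at 500 bp on the same side. The profile around the centre was thus flat with shallow shoulders at the distance where the edges of the narrowest peaks lay.

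**Figure D1:**
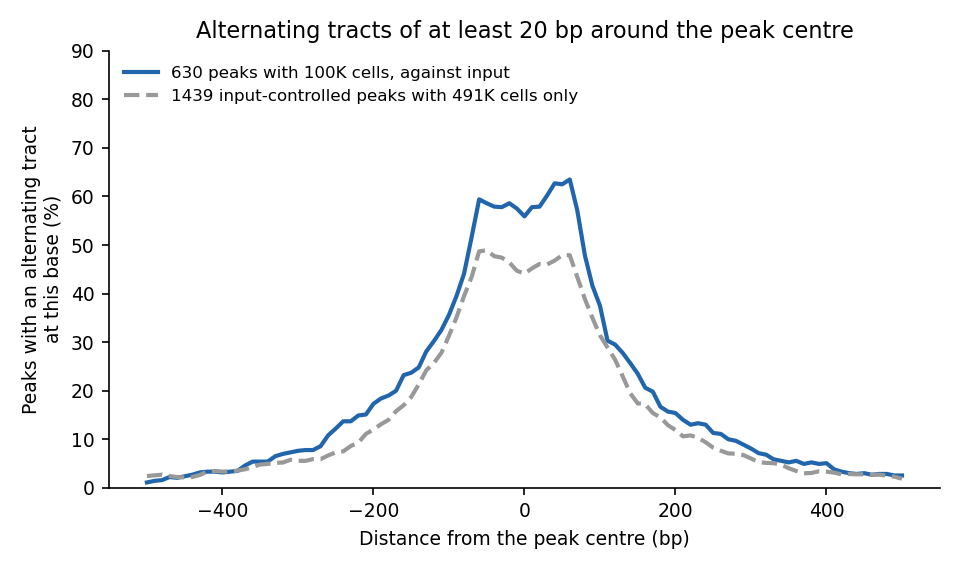
Share of peaks (y axis, percent) that had an alternating tract of at least 20 bp at each distance from the peak centre (x axis, bp), for the 630 peaks with 100K cells (solid line) and the 1439 input-controlled peaks seen with 491K cells only (dashed line). The solid line lies at 55.9% at the centre and the dashed line at 44.1%, and both fall below 5% at 500 bp.

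Of all alternating tracts of the genome, 1669 (0.285%) overlapped a peak, and tandem dinucleotides differed widely in this share. Of 279755 perfect CA runs of at least 20 bp, 1886 (0.674%) overlapped a peak. Of 125128 GA runs, in which 1 strand is all purine and no step alternates, 163 (0.130%) did. Of 40851 TA runs, which alternate at every step, 1 (0.00245%) did. CG runs also alternate at every step, and of the 469 in the genome 0 overlapped a peak. With so few CG runs, their place among the other runs cannot be told. No peak held a TA run of 20 bp or more inside it, against 0.222% of the genome windows. CA runs were present in 501 peaks (79.5%, interval 76.2 to 82.5%; 1.52% of windows) when runs in any phase were counted, and GA runs in 69 peaks (11%, interval 8.75 to 13.6%) against 0.701% of windows. With 491K cells against input, CA, GA and TA runs kept this order, with 17.3, 4.41 and 0.147 of 1000 runs overlapping a peak. For CG runs it was 2 of 469. These lists come from the same cell type with different cell numbers and different handling before shearing, and were each called once.

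The length of the run did not order the CA runs in 1 direction. Of the CA runs of 20 to 29 bp, 12.5 of 1000 overlapped a peak with 100K cells, and this number was 5.03 at 30 to 39 bp, 2.65 at 40 to 49 bp and 3.89 at 50 to 59 bp. Among the 3650 CA runs of at least 60 bp it was 24.1 of 1000. Short runs often stood side by side in 1 peak, as at Src, and 375 peaks (59.5%) held at least 2 alternating tracts. Among alternating tracts of any kind that were at least 100 bp long, those with CG overlapped a peak in 42.9 of 1000 cases (125 of 2913), and those of the other kind in 10.3 of 1000 (57 of 5551). Tracts of that length made of CA or TG only were rare in the genome, and 13 of 26 overlapped a peak.

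**Figure D2:**
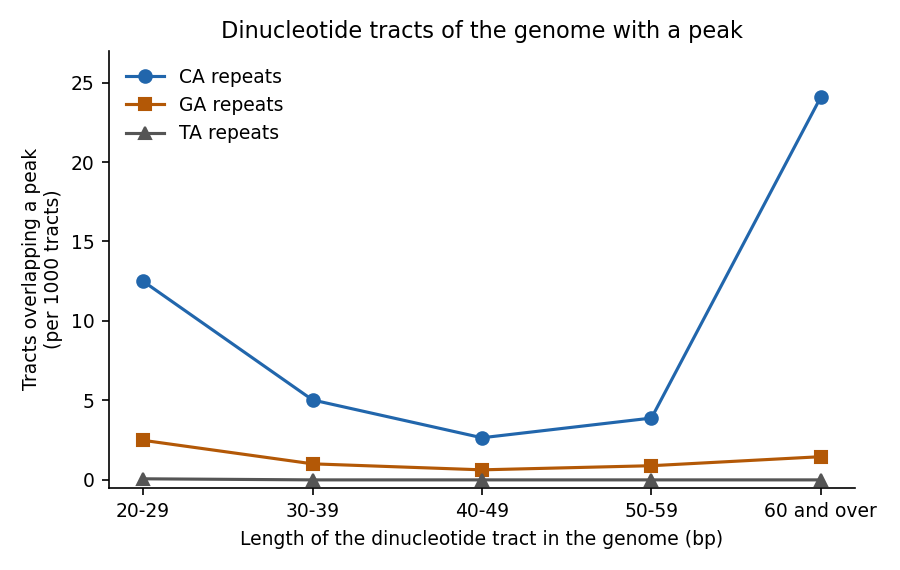
Number of tandem dinucleotide tracts per 1000 in the genome that overlapped one of the 630 peaks (y axis), by length of the tract (x axis, bp), for CA, GA and TA repeats on either strand. CA repeats lie between 2.65 and 24.1 per 1000, GA repeats between 0.632 and 2.49, and TA repeats at or near 0 at every length.

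CpG was scarce in most peaks and dense in a few. At least 1 CpG was present in 184 peaks (29.2%, interval 25.8 to 32.9%), against 60.7% of the genome windows. The median number was 0 and the highest 74. The peaks whose longest tract held CG had a median of 10 CpG, with an upper quartile of 18.5. GC content was 50% at the median of the 630 peaks, with quartiles of 48.71% and 51.70%, close to that of a pure CA repeat, whereas genome windows averaged 41.7%. Bases marked as repeats in the assembly made up at least 50% of 619 peaks (98.3%), and genome windows were marked over 36.4% of their length on average.

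The 115 peaks without an alternating tract were also mostly repeats, but of other kinds. The longest perfect tandem repeat was GA in 42 of them (36.5%), no tandem repeat of at least 20 bp was found in 38 (33.0%), and units of 3 to 6 bases made up most of the rest. An all-purine or all-pyrimidine run of at least 20 bp was present in 61 of the 115 (53.0%), against 14.1% of all 630 peaks and 4.25% of genome windows. An alternating tract lay within 300 bp of the peak in 28 of the 115 (24.3%). The median score was 128, against 153 for the 515 peaks with a tract, and the quartiles of both groups overlapped broadly, at 71.00 to 218 and 82 to 345. Overlap with a 491K peak called against IgG was found for 23 of the 115 (20.0%, interval 13.7 to 28.2%) and for 313 of the 515 (60.8%, interval 56.5 to 64.9%). The sequences of 3 peaks without an alternating tract are given here because they show these kinds of repeat, with the longest tandem repeat in capitals. They are the highest-scoring peak without a tract, in an intron of Rasgrf2, which encodes a guanine nucleotide exchange factor, and peaks in introns of 1700006A11Rik and of Dlc1.
Rasgrf2, chr13:92043926-92044077: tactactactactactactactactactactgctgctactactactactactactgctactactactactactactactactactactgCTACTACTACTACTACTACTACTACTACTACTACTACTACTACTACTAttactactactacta
1700006A11Rik, chr3:124404010-124404131: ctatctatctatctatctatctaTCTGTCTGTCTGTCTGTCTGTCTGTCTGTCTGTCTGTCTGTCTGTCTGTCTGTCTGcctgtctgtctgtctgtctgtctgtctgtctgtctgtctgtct
Dlc1, chr8:36880791-36880916: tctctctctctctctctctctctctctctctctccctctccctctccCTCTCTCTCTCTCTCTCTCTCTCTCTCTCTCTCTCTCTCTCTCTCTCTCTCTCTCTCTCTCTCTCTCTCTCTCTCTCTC

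The Rasgrf2 peak had a score of 1459 and overlapped a 491K peak against input with a score of 4495 and one against IgG with a score of 724. The peaks of 1700006A11Rik and Dlc1 had scores of 551 and 82 and overlapped no 491K peak. In the Dlc1 peak, no neighbouring bases alternated between purine and pyrimidine at all.

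The scores of the 630 peaks ran from 13 to 13689, with a median of 153 and quartiles of 82 and 301, and 44 peaks reached 1000. High scores included 8555 in an intron of Mocos, which encodes an enzyme that activates molybdenum-dependent enzymes, 7622 near the non-coding gene Gm49241, and 7373 for an intergenic peak at chr17:9030779-9031261. All of the 10 highest-scoring peaks held CA runs of 31 to 174 units, overlapped a 491K peak against input and a 491K peak against IgG, and overlapped no 100K peak against IgG. The lowest scores were 2 peaks at 13, 1 at 17 and 5 peaks at 22, of which 3 held no alternating tract. The CA runs were longer in the higher-scoring peaks. With the peaks divided into 4 groups at the quartiles of the score, from low to high, the median number of units in the longest CA run was 14, 16, 19 and 26 over 125, 124, 111 and 140 peaks. The share of peaks with an alternating tract was 78.6%, 80.8% and 77.4% in the 3 lower groups and 90.3% in the highest, whose interval of 84.6 to 94.0% overlapped that of the second group only (73.9 to 86.2%). CACG units were scarcest in the highest group, where 9 of 155 peaks (5.81%) held them, against 19 of 173 (11%) in the lowest, with overlapping intervals of 3.08 to 10.7% and 7.14 to 16.5%.

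**Figure D3:**
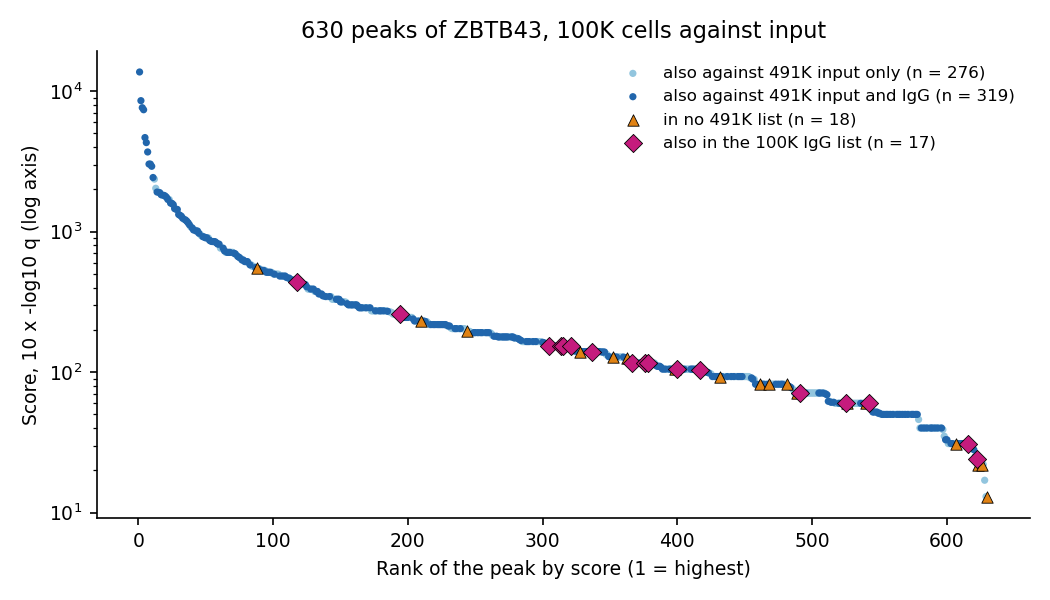
Score of each of the 630 peaks (y axis, log scale) against its rank by score (x axis), coloured by the other lists that hold an overlapping peak. The 17 peaks also in the 100K IgG list (diamonds) lie between ranks 118 and 622, and the 18 peaks in no 491K list (triangles) between ranks 88 and 630.

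Against the larger experiment, 612 of the 630 peaks (97.1%, interval 95.5 to 98.2%) overlapped a 491K peak against input by at least 1 bp. In the other direction, 604 of 2043 input-controlled 491K peaks (29.6%) overlapped a peak with 100K cells. All of the 100 highest-scoring input-controlled 491K peaks did so, and 190 of the highest 200. The 10 that did not included a peak of 875 bp in an intron of Hhat and a peak of 595 bp in an intron of Rab3c. The positions were nearly the same, with a median distance of 11.5 bp between the centres and 413 of 612 (67.5%) within 25 bp. The 100K peaks were narrower, at a median of 0.780 of the width of the 491K peak, and 536 (87.6%) lay wholly inside it. In 7 cases a single 491K peak covered more than 1 of the 100K peaks, 15 in all. At Diaph3, a formin that nucleates actin, 1 peak of 1142 bp with 491K cells was matched by 3 peaks with scores of 105, 218 and 71. The scores of the 2 experiments had a Spearman rank correlation of 0.76 over the 612 peaks, given as a description, since both lists share antibody, cell type and peak caller and peaks of a list are not replicates. A score depends on the number of reads kept, which the lists do not give, so the sizes of scores were not compared between lists.

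**Figure D4:**
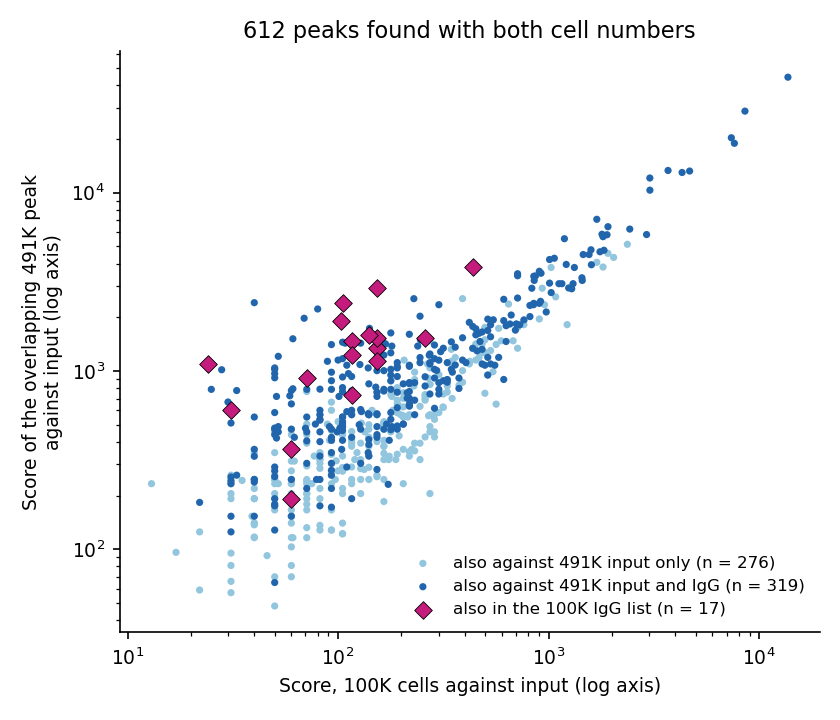
Score of the overlapping 491K peak against input (y axis, log scale) against the score with 100K cells (x axis, log scale) for 612 peaks, coloured by overlap with IgG-controlled lists. The 17 peaks also in the 100K IgG list (diamonds) lie towards the upper edge of the points, with a median rank of 376 with 100K cells and of 136 with 491K cells, against 303 and 363 for the other 595.

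Of the 630 peaks, 336 (53.3%, interval 49.4 to 57.2%) overlapped a 491K peak against IgG, and each of these was also among the 612. As background, 878 of all 2043 input-controlled 491K peaks (43.0%) overlapped such a peak. Among the 1439 of them seen with 491K cells only, 548 (38.1%) did. Within the 630 peaks, the share was 44.5% in the lowest of the 4 score groups, 53.8% and 50% in the middle ones and 65.8% in the highest. An alternating tract was present in 313 of the 336 (93.2%, interval 89.9 to 95.4%) and in 202 of the 294 without such a peak (68.7%, interval 63.2 to 73.7%), and the intervals did not overlap. The 336 peaks were also wider, with a median of 210 bp against 134 bp. CACG tracts of at least 2 units were present in 46 of the 336 (13.7%, interval 10.4 to 17.8%) and in 22 of the 294 (7.48%, interval 4.99 to 11.1%), and these intervals overlapped. Each of the 5 peaks with the most CACG units, between 13 and 26, overlapped a 491K peak against input and none overlapped one against IgG. Of the 28 peaks with at least 4 units, 13 (46.4%) overlapped a 491K peak against IgG, and of the 40 peaks with 2 or 3 units 33 (82.5%) did.

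Overlap with the 18 peaks called against IgG on the same 100K ZBTB43 library was found for 17 of the 630 peaks (2.70%, interval 1.69 to 4.28%). The strongest of the 630 were not among them. The highest-ranked of the 17, an intergenic peak at chr2:92660797-92661210, had a score of 437 and ranked 118, and the 117 peaks above it included 82 with a 491K peak against IgG. The 17 were wide rather than high, with a median width of 414 bp against 153 bp for all 630 peaks and a median score of 116 against 153. They overlapped 491K peaks of 278 to 1406 bp with a median width of 902 bp. Their longest tract held CG in 10 of 17 (58.8%, interval 36.0 to 78.4%), against 21.4% of all 630 peaks, and their median number of CpG was 12. Their sequences were of several kinds. At Shq1, an assembly factor of small nucleolar ribonucleoproteins, the tract ran 413 bp with 53 CpG and the score was 259. At Pcdh7, a protocadherin, and Src, tracts of 30 bp and 25 bp had scores of 153 each, and at Tex21 no tract was found in a peak with the same score. The 18th peak against IgG, at Hhat, which encodes an acyltransferase of hedgehog proteins, had no peak against input with 100K cells.

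The study names 17 loci for ZBTB43 binding, most from ChIP–seq, and 12 of them held 14 of the 630 peaks, in the gene or within 10 kb. Of these 12 loci, 10 held peaks already described above as overlapping the 100K IgG list. All loci were named by the study from its own binding data, so their presence here is no independent evidence. The 14 peaks ranked between 135 and 622. The highest was in an intron of Plekhh2, with a score of 360 and a tract of 39 bp, and the lowest in an intron of Serpinb1b, a serine protease inhibitor, with a score of 24 and a tract of 32 bp. Tshz2, a zinc finger homeobox gene, held a peak with a score of 153, a tract of 260 bp and 58 CpG. Mxi1, which encodes an antagonist of MYC, held one with a score of 103, a tract of 188 bp and 65 CpG. Gpr160, an orphan receptor, held a peak of 683 bp with a score of 117 and a tract of 101 bp. At Spg11, 2 peaks with scores of 105 and 40 lay within 1 peak of 1196 bp with 491K cells, and the weaker held no tract. At Cngb3, a second peak with a score of 82 and a tract of 26 bp lay at the promoter. Itsn2, an endocytic scaffold gene, and Pdzd2 held peaks with scores of 71 and 30. Hhat, Dhx35, Rps6kl1, Ago2 and Arid2 held none. Of these, Hhat and Dhx35 held 491K peaks against input, and the other 3 held none in that list either. Rps6kl1, Ago2 and Arid2 differ from the rest in that the study took them from binding of purified protein to genomic DNA and from sperm methylation, not from ChIP–seq.

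The 18 peaks without an overlapping 491K peak against input differed in sequence from the rest. An alternating tract was present in 6 of 18 (33.3%, interval 16.3 to 56.3%), against 509 of 612 (83.2%, interval 80 to 85.9%), and a CA run of at least 10 units in 5. Their median score was 82, against 153 for the 612, with a range of 13 to 551. None of them overlapped a peak of either IgG-controlled list. The nearest 491K peak against input was 3721 bp away for an intergenic peak at chr17:49372227-49372344 with a tract of 81 bp, and 4467 bp away for the lowest-scoring peak of the list, at chr9:87417158-87417306. All the others lay at least 67040 bp from such a peak. After 1700006A11Rik, with a score of 551, the highest scores were 231 in an intron of Celf2, an RNA-binding protein, with a CA tract of 31 bp, and 196 in an intron of Cpeb4, a regulator of cytoplasmic polyadenylation, with a repeat of 79 bp and no alternating tract. The promoter peaks of Rnf144a and Clptm1l had scores of 140 and 93. The only one of the 18 with CACG units lay 482 bp from the miRNA gene Gm24275, with a tract of 124 bp and 12 CpG. The 4 lowest-scoring, in introns of Lrmda and Fhit and at 2 intergenic sites, had scores of 13 to 31, no tandem repeat and no base marked as a repeat.

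Those 4 peaks belonged to only 11 of the 630 (1.75%) in which under 50% of the bases were marked as repeats, and none of the 11 held an alternating tract. A further 3 lay at genes of small nuclear RNAs, the RNA parts of the spliceosome, which are present in the genome in many similar copies. The strongest, with a score of 1224, covered the whole of Gm24407, a gene of 141 bp annotated as U4 spliceosomal RNA, at chr5:115490251-115490397. The others, with scores of 530 and 180, lay on Gm22513 and Gm22068, both annotated as U1 spliceosomal RNA, the latter within Tex14, a gene of the intercellular bridge of germ cells. Of 1383 annotated small nuclear RNA genes, 3 (0.217%) overlapped a peak, and no gene annotated as ribosomal RNA, miRNA or small nucleolar RNA did. Each of the 3 peaks also overlapped a 491K peak against input, with scores of 1818, 1094 and 487, and those at the U1 genes a 491K peak against IgG, with scores of 198 and 60. Another 3 lay in coding sequence, at Myh1 and Myh4, which encode myosin heavy chains of fast skeletal muscle, and in Zbtb43 itself. Reads of such gene copies and of neighbouring myosin genes can be assigned to the wrong copy, which can limit how exactly these positions are known. Whether it did so here was not tested. The sequences of 5 of these peaks are printed because they are not repeats of short units, with the small nuclear RNA gene or the coding sequence in capitals, again from the plus strand.
Gm24407, chr5:115490251-115490397: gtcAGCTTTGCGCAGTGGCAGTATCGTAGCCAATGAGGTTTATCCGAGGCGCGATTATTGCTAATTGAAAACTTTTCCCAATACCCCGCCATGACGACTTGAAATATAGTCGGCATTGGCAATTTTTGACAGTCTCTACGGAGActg
Gm22068, chr11:87426744-87426881: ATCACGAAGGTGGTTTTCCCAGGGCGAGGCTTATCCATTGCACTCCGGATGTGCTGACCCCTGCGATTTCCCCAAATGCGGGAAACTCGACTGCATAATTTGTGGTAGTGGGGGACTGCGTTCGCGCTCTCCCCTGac
Myh1, chr11:67207422-67207546: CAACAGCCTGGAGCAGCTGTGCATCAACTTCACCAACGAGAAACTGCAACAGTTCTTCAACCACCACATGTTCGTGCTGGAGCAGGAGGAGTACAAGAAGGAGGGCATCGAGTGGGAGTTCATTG
Myh4, chr11:67254702-67254852: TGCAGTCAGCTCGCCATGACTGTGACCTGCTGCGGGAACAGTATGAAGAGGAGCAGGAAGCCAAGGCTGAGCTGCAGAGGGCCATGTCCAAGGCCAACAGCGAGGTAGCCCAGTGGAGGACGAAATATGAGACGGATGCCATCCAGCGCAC
Zbtb43, chr2:33453936-33454138: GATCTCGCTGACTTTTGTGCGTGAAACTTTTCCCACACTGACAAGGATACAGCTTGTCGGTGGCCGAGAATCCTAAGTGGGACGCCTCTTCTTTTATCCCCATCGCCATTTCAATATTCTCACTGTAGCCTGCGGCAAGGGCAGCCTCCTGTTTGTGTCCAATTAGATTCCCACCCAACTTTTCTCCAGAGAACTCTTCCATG

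The peak in Zbtb43 had a score of 50 and ranked 566, and all of its 203 bp were coding. It overlapped a 491K peak against input with a score of 70 and no peak against IgG. The peaks of Myh1 and Myh4 had scores of 348 and 231, overlapped 491K peaks against input with scores of 701 and 356, and overlapped none against IgG. They were coding over 125 and 151 bp, their whole width. In all, 7 of the 630 peaks (1.11%, interval 0.539 to 2.28%) had their centre in an exon. Besides these and Gm24407, they were at Shq1 and Enah, in untranslated exons, and at Gm47905, an unclassified transcript.

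By the position of the centre, 288 peaks (45.7%) were intergenic, 271 (43.0%, interval 39.2 to 46.9%) intronic and 64 (10.2%) in promoters, defined as the 3000 bp upstream of a transcription start site. Of the 2043 input-controlled 491K peaks, 44.1% were intergenic, 42.8% intronic, 9.54% in promoters and 3.57% in exons. The shares of the genome in these places were not counted, so no excess or lack can be read from the values. An alternating tract was present in 82.3% of intronic, 81.2% of intergenic and 85.9% of promoter peaks. Their intervals overlapped, which is no test of likeness. The median score was 165, 140 and 122 in introns, intergenic sequence and promoters. Of 21938 protein-coding genes, 363 (1.65%) had a peak in the gene or within 10 kb of it, and these genes were long, with a median of 86.7 kb against 17.1 kb for the others. Among genes under 10 kb, 7 of 7774 (0.0900%) had a peak in the body, and among genes of at least 200 kb, 98 of 998 (9.82%). Per length of gene the numbers were closer, at 0.188, 0.220, 0.275 and 0.254 peaks per Mb from the shortest to the longest class. A set of 3 peaks lay in each of Diaph3 and Fgfr2, a fibroblast growth factor receptor whose annotated span is 2961 kb, with scores of 178, 51 and 71 at Fgfr2.

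Among gene lists chosen for this tissue and protein, few genes had a peak, and all lists were read against the 1.65% of protein-coding genes. Of 41 genes of the BTB zinc finger family 2 (4.88%) had a peak, Zbtb43 and Zbtb46, the latter at the promoter with a score of 140 and a tract of 71 bp. Of 20 genes of the piRNA pathway, which silences transposons in fetal germ cells, 2 (10%) had a peak. They were Piwil4, which encodes the nuclear PIWI protein MIWI2, and Tdrd7, a Tudor domain gene. The peak within 10 kb of Piwil4 had a score of 178 and a tract of 256 bp holding CG. It was intergenic, and another protein-coding gene, Fut4, lay nearer to it. The peak of Tdrd7 had a score of 93 and a tract of 65 bp holding CG in an intron. None of 12 genes of DNA methylation, 11 of Z-DNA binding and DNA topology, 17 germ cell genes, 20 genes of double-strand break and mismatch repair or 20 imprinted genes had a peak. Counts of 0 to 2 genes are too small to be told apart from that background.

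On autosomes there were 0.203 to 0.382 peaks per Mb of known sequence, with the highest density on chromosome 17. Chromosome X held 8 peaks (0.0489 per Mb) and chromosome Y held 1 (0.0113 per Mb). The sex chromosomes also had fewer peaks per tract, with 0.316 per 1000 alternating tracts on X and 0.0890 on Y, against 0.821 to 1.61 on autosomes. Male cells carry 1 copy each of X and Y, and the part of copy number in these values was not tested. The peak on Y, with a score of 483, held a GA repeat and no alternating tract. Peaks were spread widely, with a median gap of 2299 kb between neighbours on a chromosome and 8 pairs under 1 kb apart.

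**Figure D5:**
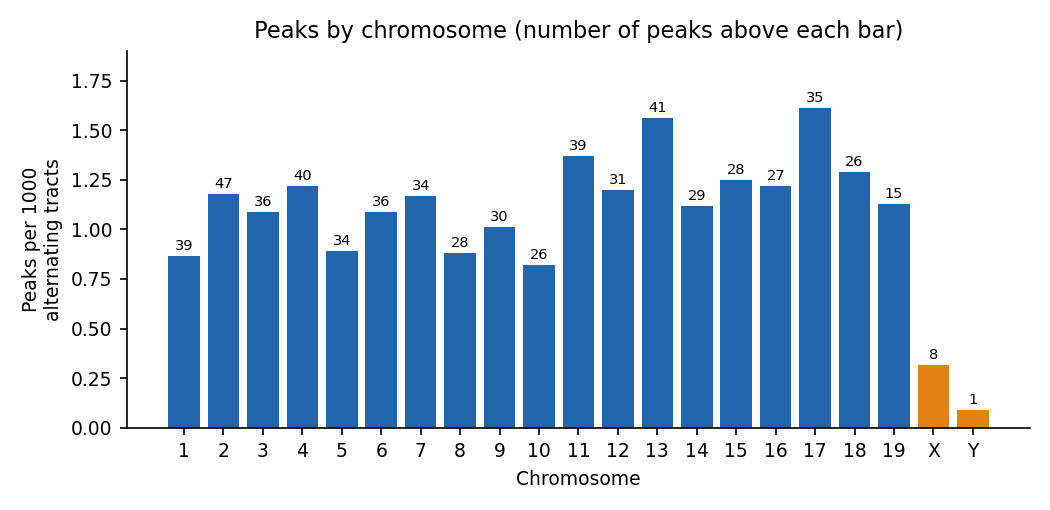
Number of peaks per 1000 alternating tracts of at least 20 bp on each chromosome (y axis), with the number of peaks above each bar. Autosomes (blue) lie between 0.821 and 1.61, X at 0.316 and Y at 0.0890.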

How the data were processed

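ChIP–seq was performed by the study on sorted prospermatogonia, and 4 peak lists were used. According to its methods, the authors used Trim Galore for trimming and bwa mem for alignment to mm10, kept proper pairs of high mapping quality, called peaks with MACS2 at a q-value of 0.05 for each ZBTB43 library against its own control without pooling, and removed ENCODE blacklist regions. The submitters' processing notes give Trim Galore 0.6.0, BWA 0.7.17 and MACS2 2.2.7.1. The mapping quality filter can remove fragments lying wholly within repeats, and the control decides which background is subtracted. The score of each peak was deposited by the authors and read as 10 times the −log10 q, without decimals. This reading rests on the lowest score of 13, which corresponds to the q-value threshold. The methods state a minimum depth common to the ChIP–seq libraries, but the reads kept for each peak list are unknown here.

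Every row of the 100K list against input was a member. Sequences came from GRCm38.p6, whose chromosomes correspond to mm10, small nuclear RNA names from RefSeq and genes from GENCODE M21. Overlap meant at least 1 bp. Tracts, repeats and locations were computed with Python 3.11.15 and NumPy 2.4.6, and figures drawn with Matplotlib 3.10.9. The code was tested on simulated data. With 1 library a side no test between groups was possible, and shares carry 95% Wilson intervals. These intervals cover counting error within a list, and whether they overlap is a description and no test. Members, gene lists and the rules for named peaks were chosen with earlier results of these data known. Named peaks were chosen by extremes of score, width, tract and CACG units, by absence of a 491K peak, by overlap with the 100K IgG list, by exons and by the loci of the study. Not every peak that met the rule is reported here. The peaks at small nuclear RNA genes, on chromosome Y and with few repeat bases, the 491K peaks without a member and the dinucleotide counts were singled out after their values were seen. Signal tracks were not used here. Coordinates are 1-based.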

Additional observations from a re-analysis of the deposited data

How the results depend on the processing

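No paired analysis was possible because the groups have no second library, and for the same reason no replicate could be left out. Of 23 alternatives to 11 results, 14 counted as unchanged and 9 as moved. Unchanged meant within the interval of the result, within 1.5 times its count or, for the difference in medians, in the same direction. Only that difference could have reversed, with width in place of score, and it did not. Every alternative with a score of at least 20 was unchanged, but this filter kept 627 of 630 peaks and could change little. A reciprocal overlap of at least 50% lowered the share of peaks overlapping a 491K peak to 75.1% against input and 41.4% against IgG. The share with an alternating tract was 69.5% at a minimum of 30 bp and 84.9% at 14 bp. At least 15 CA units were found in 55.7% of peaks and at least 4 CACG units in 4.44%. Counting tracts within 200 bp of a peak gave 0.376% of the tracts of the genome. The share of protein-coding genes with a peak was 1.16% in the gene body alone and 3.81% within 50 kb. These changes follow from the stricter or wider definitions themselves. How many reads entered each peak call is not in the lists, and fixation and shearing differed between the cell numbers. Both limit every statement on peaks seen with 1 cell number only.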
